A study of Mus musculus with 6 samples.

Results

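The 10 genes described here encode proteins of the piRNA pathway and of the germ granules in which it works, out of 49671 gene rows in a table of RNA-seq counts from juvenile mouse testis. They were chosen by name (Piwil1, Piwil2, Piwil4, Tdrd1, Tdrd5, Tdrd9, Mov10l1, Ddx4, Mael and Pld6), and all 10 passed the filter on low counts. The tissue was whole testis of the C57BL/6J background, taken 12 days post-partum from 3 wild-type (Ankrd31+/+) and 3 Ankrd31 knockout (Ankrd31-/-) animals. Ankrd31 encodes an ankyrin-repeat protein that works with the machinery of meiotic DNA double-strand breaks, and how the allele was made is not given in the sources used here. Whole testis holds germ cells and somatic cells together, so in every comparison below fewer cells of a type and less RNA per cell cannot be told apart.

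PIWI-interacting RNAs (piRNAs) are small RNAs of the germ line that guide PIWI-family Argonaute proteins to transposon transcripts and to other RNAs. Tudor domain proteins bind methylated arginines of the PIWI proteins and gather them in granules between mitochondria, RNA helicases feed precursor RNA into the pathway, and a nuclease of the outer mitochondrial membrane cuts it. In the mouse testis Piwil4 is known from fetal gonocytes, Piwil2 from gonocytes through spermatocytes, and Piwil1 from pachytene spermatocytes and spermatids, in which the abundant pachytene piRNAs are made. At the age sampled, the first wave of germ cells is in early meiotic prophase.

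The promoters of most of these genes share a short word. The 250 bases before the start site were taken from RefSeq (GRCm38.p6) for 9 genes, using the start nearest to the gene's 5′ end in GENCODE, and the table held no entry for Piwil2. The E-box CACGTG, which reads the same on both strands, was found in 7 of the 9 windows, against 6.02% of 32851 windows of the same length. It stood in the windows of Piwil1 (at 179 and 154 bases before the start), Tdrd1 (11), Tdrd9 (165 and 95), Mov10l1 (246), Ddx4 (29), Mael (223) and Pld6 (33). No copy was in the windows of Piwil4 and Tdrd5. In the Ddx4 window, 165 bases lie in GENCODE exons of Ddx4, and the E-box is among them. The exon-free stretch of that window held 0 copies. All 250 bases of the Tdrd5 window lie in exons of Tdrd5. MYB words (the word TAACGG, the word CAACGG, the word TAACTG and the word CAACTG, each on either strand), whose letters cannot overlap an E-box, were found in 3 of 9 windows (Piwil1, Tdrd5 and Mov10l1), against 23.7% of all windows. A match is a description of the letters and not a measured binding site. Of the other piRNA pathway genes listed further on, 3 of 22 with an entry had the E-box in any of their windows, against 6.86% of 27025 genes.

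For 5 genes the longest stretch of the window free of annotated exons of any gene is shown: Piwil1, which stood apart in 1 library, Tdrd9, Mov10l1 and Mael, which shared their highest libraries, and Piwil4, which has no such word. Capitals mark E-boxes and MYB words, and each is written 5′ to 3′ on the gene's strand.
Piwil1: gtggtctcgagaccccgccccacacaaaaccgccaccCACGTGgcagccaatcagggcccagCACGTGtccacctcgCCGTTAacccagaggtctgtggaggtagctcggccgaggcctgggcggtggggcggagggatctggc
Tdrd9: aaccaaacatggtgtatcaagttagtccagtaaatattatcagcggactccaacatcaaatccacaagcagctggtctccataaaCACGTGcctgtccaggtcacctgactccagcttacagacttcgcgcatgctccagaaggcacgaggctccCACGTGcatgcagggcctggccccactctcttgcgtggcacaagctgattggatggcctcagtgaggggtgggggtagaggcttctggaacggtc
Mov10l1: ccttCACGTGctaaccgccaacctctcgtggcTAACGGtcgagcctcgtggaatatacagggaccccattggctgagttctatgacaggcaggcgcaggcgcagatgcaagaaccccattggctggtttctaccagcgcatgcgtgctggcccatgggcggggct
Mael: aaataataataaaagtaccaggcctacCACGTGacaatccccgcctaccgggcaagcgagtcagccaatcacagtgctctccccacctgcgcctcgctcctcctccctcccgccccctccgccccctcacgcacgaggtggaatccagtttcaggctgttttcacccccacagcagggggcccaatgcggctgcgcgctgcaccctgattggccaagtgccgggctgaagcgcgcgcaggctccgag
Piwil4: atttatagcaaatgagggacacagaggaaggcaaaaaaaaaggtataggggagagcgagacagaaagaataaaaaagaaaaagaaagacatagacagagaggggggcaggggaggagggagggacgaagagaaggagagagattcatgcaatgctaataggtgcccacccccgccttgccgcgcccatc
The stretches lie in GRCm38.p6 at chr5:128736030-128736173 (plus strand) for Piwil1, chr12:111971309-111971558 (plus) for Tdrd9, chr15:88982744-88982908 (plus) for Mov10l1, chr1:166238748-166238994 (minus) for Mael and chr9:14740734-14740922 (minus) for Piwil4. The RefSeq start of Piwil1 lies 33722 bases inside the longer GENCODE gene.

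The libraries held 21014060 to 22706296 counts assigned to genes, and 18040 genes were tested. Levels are CPM (counts divided by library size and scaled) on effective library sizes. The targeted gene Ankrd31 stood at 66.8 ± 16.6 CPM in wild type and 37.3 ± 3.89 CPM in knockout (SD, n = 3 each), with no overlap between the genotypes and a log2 fold change of -0.84 ± 0.17 (SE) that did not pass without the block (edgeR adjusted p = 1.0) and passed with it (edgeR adjusted p = 0.00505). Ankrd31 also passed in DESeq2 without the block (adjusted p = 0.00163), and did not pass in edgeR with the block and without pair 3 (adjusted p = 0.316). Germ cell markers were present in every library: the summed level of 13 early meiotic prophase markers, all above 0 in the table, was 1338 to 2445 CPM in wild type and 1741 to 2434 CPM in knockout. Wild-type replicate 3 stood apart by the summed level of 7 markers of epididymis and rete epithelium, which was 140.5 CPM there and 68.03 to 84.83 CPM elsewhere. Of these 7 markers, 6 were highest in wild-type replicate 3 and 1 in knockout replicate 1.

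The 10 genes differed widely in level, and the PIWI genes spanned most of that range. On the scale of CPM per kilobase of exon, in the wild-type libraries, the order from the top was Mael (111.6 ± 8.51, SD, n = 3), Ddx4 (99.9 ± 13.1), Piwil2 (61.6 ± 4.84), Mov10l1 (48.8 ± 9.32), Tdrd1 (21.4 ± 1.48), Tdrd9 (18.7 ± 3.17), Pld6 (13.4 ± 0.793), Tdrd5 (5.87 ± 0.923), Piwil1 (2.90 ± 1.64) and Piwil4 (1.84 ± 0.314). Neighbours whose ranges over the 3 libraries overlapped were Mael and Ddx4, Piwil2 and Mov10l1, Tdrd1 and Tdrd9, and Piwil1 and Piwil4. The other 5 steps of the order lay outside the spread. Among the tested genes the wild-type mean per kilobase of Mael, a protein of germ granules and of piRNA-dependent transposon control, was at percentile 98.3, that of Piwil2 at 95.4, that of Piwil1 at 35.4 and that of Piwil4 at 28.2. Piwil2 was 33.5 times as abundant as Piwil4 and 21.2 times as abundant as Piwil1 by wild-type means per kilobase. Without length correction 5 of the 10 genes kept their place in the order.

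**Figure D1:**
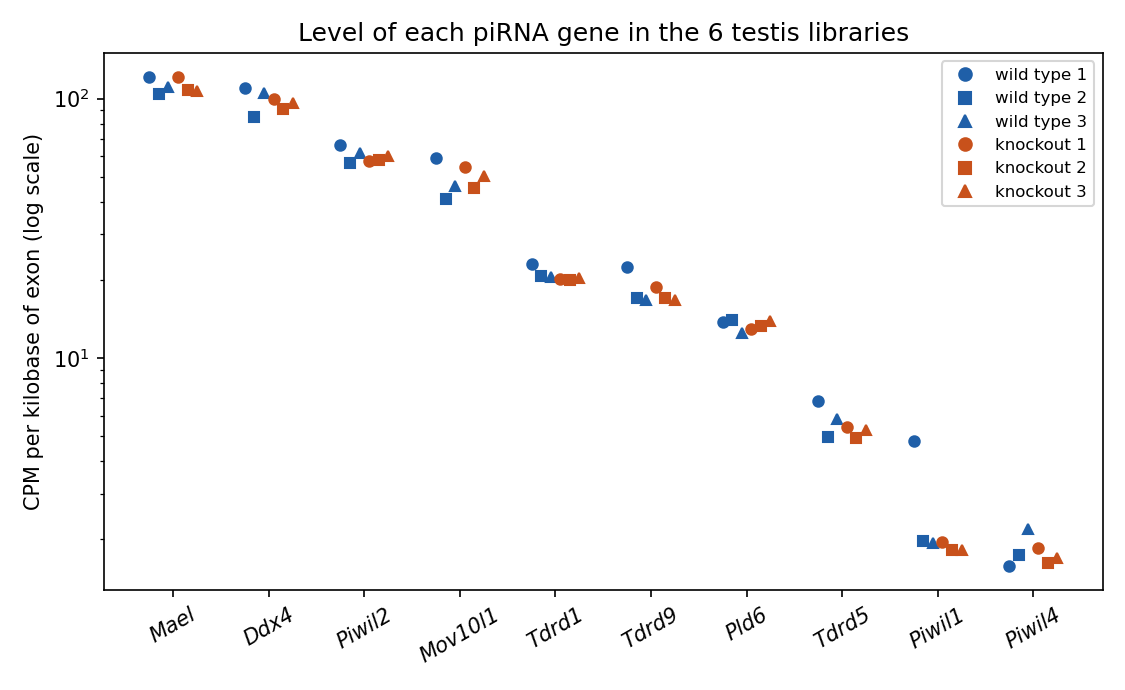
Level of each gene in each library, as CPM per kilobase of exon on a log scale, ordered by the wild-type mean; blue marks are wild type, orange marks knockout, and the shape gives the replicate number. Mael and Ddx4 lie near 100, and Piwil1 and Piwil4 near 2 in all libraries but wild type 1, where Piwil1 reaches 4.80.

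None of the 10 genes passed in knockout against wild type. In edgeR's quasi-likelihood test 0 of 10 passed at an adjusted p of 0.05, and 0 of 10 had an unadjusted p under 0.05, where 0.0% and 2.07% of all tested genes did. DESeq2 and limma voom called 0 of the 10 as well, and 0.0111% and 0.0% of all tested genes. With the replicate number as a block, edgeR called 0 of the 10 and 0.0443% of tested genes (8 genes, against 0 without the block), and 1 of the 10, Tdrd5, had an unadjusted p under 0.05, against 7.48% of tested genes. The median log2 fold change of the 10 was -0.081, against -0.005 over all tested genes. A value below 0 was found for 8 of 10, against 52.2% of tested genes. Without wild-type replicate 1 the median was -0.005 and 5 of 10 lay below 0, against 51.4%.

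**Figure D2:**
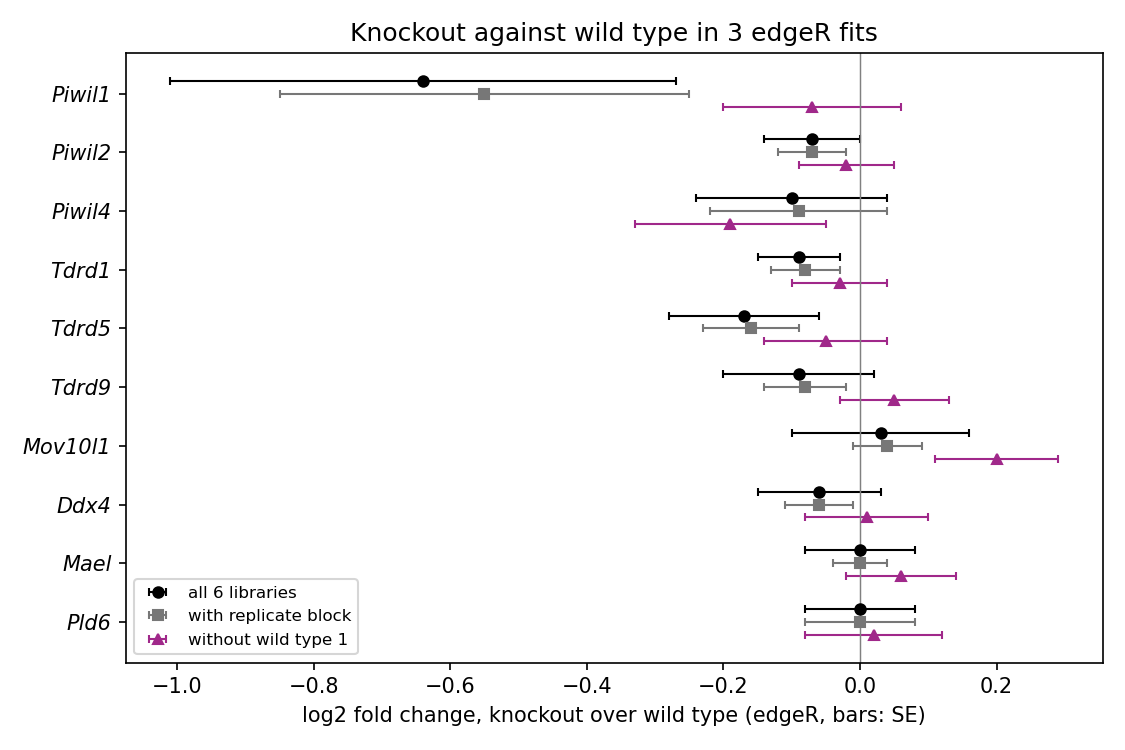
Log2 fold change of each gene, knockout over wild type, in edgeR fits of all libraries, with the replicate block, and without wild type 1; points are estimates and bars are SE. Piwil1 moves from -0.64 to -0.07 when wild type 1 is left out, and the other 9 genes lie between -0.19 and 0.20 in all fits shown.

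The PIWI genes were read first, with Piwil1 set against Piwil2 and Piwil4. Piwil1 (ENSMUSG00000029423, mm10 chromosome 5, 128702524 to 128755474, plus strand) binds the piRNAs of pachytene spermatocytes and spermatids. Its level was 20.92, 8.58 and 8.47 CPM in replicates 1, 2 and 3 of wild type, and 8.51, 7.92 and 7.93 CPM in those of knockout. Only wild-type replicate 1 was high, at 2.44 times the next library, and the other 5 lay between 7.92 and 8.58 CPM, with the genotypes overlapping. The knockout mean was 64.2% of the wild-type mean (8.12 ± 0.340 against 12.7 ± 7.16 CPM, SD, n = 3), and the log2 fold change was -0.64 ± 0.37 (SE, edgeR adjusted p = 1.0). Without wild-type replicate 1 it was -0.07 ± 0.13 (edgeR adjusted p = 0.931). The raw counts behind these levels were 462, 195 and 179 in wild type and 187, 173 and 176 in knockout. Counting alone gives a coefficient of variation of 6.61%, and the 6 libraries varied by 49.7%.

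Piwil2 (ENSMUSG00000033644, chromosome 14, 70372477 to 70429383, minus strand) encodes the cytoplasmic PIWI protein whose slicing primes piRNA amplification. It lay at 326.04, 278.51 and 304.17 CPM in wild type and at 282.31, 284.57 and 296.0 CPM in the knockout replicates. The knockout libraries fell within the wild-type range, and the 6 libraries varied by 6.04%. The log2 fold change was -0.07 ± 0.07 (SE, edgeR adjusted p = 1.0). Piwil4 (ENSMUSG00000036912, chromosome 9, 14696230 to 14740733, minus strand) encodes the nuclear PIWI protein that directs DNA methylation of transposons in gonocytes. It lay at 8.51, 9.41 and 11.79 CPM in wild type and at 9.93, 8.75 and 9.1 CPM in knockout. Its highest library was wild-type replicate 3, the one with the highest sum of epididymal and rete markers, whose part in this level was not tested. The log2 fold change of Piwil4 was -0.10 ± 0.14 (SE, edgeR adjusted p = 1.0), and 0.05 ± 0.13 without wild-type replicate 3 (edgeR adjusted p = 1.0).

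**Figure D3:**
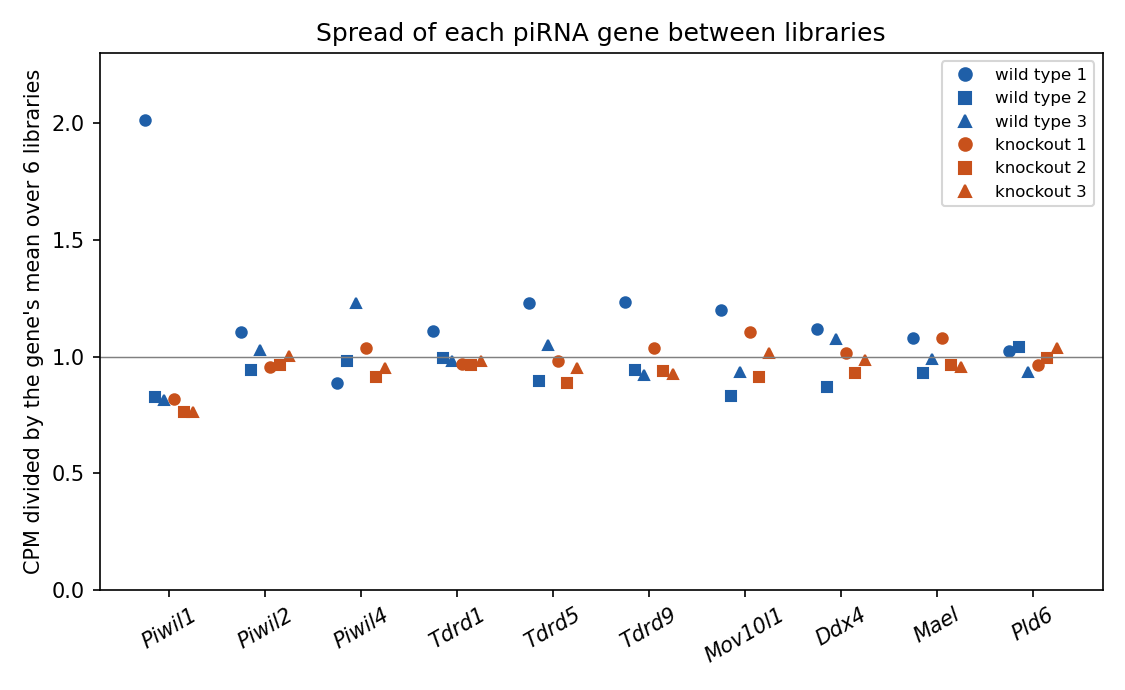
Level of each gene in each library divided by that gene's mean over the 6 libraries; blue marks are wild type, orange marks knockout, and the shape gives the replicate number. Piwil1 in wild type 1 stands alone (20.92 CPM against 7.92 to 8.58 CPM in its other libraries), and no other gene has a library so far from its mean.

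Within a library, Piwil1 was weighed against its 2 paralogs so that differences in the total germ cell content of the testis affect both genes of the ratio. The ratio does not take out differences in the mix of germ cell stages, as the PIWI genes are known from different stages. The log2 ratio of Piwil1 to Piwil2 (log2 CPM, prior count 2) was -3.96, -5.01 and -5.15 in replicates 1, 2 and 3 of wild type and -5.04, -5.15 and -5.21 in the knockout replicates. The ratio of Piwil1 to Piwil4 was 1.29, -0.13 and -0.47 in wild type and -0.22, -0.14 and -0.20 in knockout. Wild-type replicate 1 was the highest in both ratios, and the other 5 libraries ran from -5.21 to -5.01 (Piwil2) and from -0.47 to -0.13 (Piwil4). The knockout mean minus the wild-type mean was -0.43 for Piwil2 (exact permutation test, two-sided, p = 0.2, adjusted over the 2 ratios 0.4) and -0.41 for Piwil4 (exact p = 0.7, adjusted 0.7). The smallest p that this exact permutation test of 3 against 3 libraries can give is 0.1. Without wild-type replicate 1 the differences were -0.05 and 0.12. In CPM per kilobase, Piwil1 was 3.04 times Piwil4 in wild-type replicate 1 and 0.888 to 1.13 times Piwil4 in the other 5 libraries.

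The Tudor domain scaffolds were lower in knockout by small amounts that did not pass. Tdrd1 (ENSMUSG00000025081, chromosome 19, 56826209 to 56870012, plus strand) encodes a multi-Tudor scaffold of intermitochondrial granules. It lay at 125.83, 112.63 and 111.3 CPM in wild type and at 109.6, 108.93 and 110.88 CPM in knockout. Tdrd1 was the 1 gene of the 10 whose knockout libraries all lay below all wild-type libraries, which 3.5% of tested genes did, and the gap between the groups was that between 110.88 and 111.3 CPM. Its log2 fold change was -0.09 ± 0.06 (SE, edgeR adjusted p = 1.0), and -0.03 ± 0.07 without wild-type replicate 1. Tdrd5 (ENSMUSG00000060985, chromosome 1, 156255296 to 156303664, minus strand) encodes a Tudor protein needed for pachytene piRNA production. It lay at 47.27, 34.48 and 40.38 CPM in wild type and at 37.75, 34.16 and 36.49 CPM in knockout, where the groups overlap. Its log2 fold change was -0.17 ± 0.11 (SE, edgeR adjusted p = 1.0), with -0.16 ± 0.07 in the blocked fit (edgeR unadjusted p = 0.0321, adjusted p = 0.622) and -0.05 ± 0.09 without wild-type replicate 1. Piwil1, Tdrd1 and Tdrd5 were lower in 3 of 3 pairs of the same number, against 14.7% of tested genes.

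The helicase genes showed no difference that passed either, and Mov10l1 ordered the libraries differently from Piwil1. Mov10l1 (ENSMUSG00000015365, chromosome 15, 88982909 to 89055152, plus strand) encodes the helicase that binds piRNA precursors and feeds their processing. It lay at 247.49, 172.04 and 192.73 CPM in wild type and at 227.94, 188.74 and 209.5 CPM in knockout. Replicate 1 of each genotype was highest, and the groups overlap. The log2 fold change was 0.03 ± 0.13 (SE, edgeR adjusted p = 1.0), and 0.20 ± 0.09 without wild-type replicate 1 (edgeR adjusted p = 0.613). Tdrd9 (ENSMUSG00000054003, chromosome 12, 111971559 to 112068854, plus strand) encodes a helicase with a Tudor domain that partners Piwil4 in gonocytes. It lay at 121.07, 92.49 and 90.33 CPM in wild type and at 101.95, 92.08 and 90.69 CPM in knockout. Here too replicate 1 of each genotype was highest, with 4 libraries between 90.33 and 92.49 CPM. Its log2 fold change was -0.09 ± 0.11 (SE), and 0.05 ± 0.08 without wild-type replicate 1. Ddx4 (ENSMUSG00000021758, chromosome 13, 112598333 to 112652475, minus strand), the mouse Vasa gene and a general marker of germ cells, lies 15.7 megabases from Ankrd31 on the same chromosome. It lay at 312.05, 242.14 and 299.62 CPM in wild type and at 283.45, 258.98 and 274.82 CPM in knockout, inside the wild-type range, and its log2 fold change was -0.06 ± 0.09 (SE, edgeR adjusted p = 1.0).

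Mael and Pld6 had the smallest differences. Mael (ENSMUSG00000040629, chromosome 1, 166201201 to 166238747, minus strand) lay at 209.0, 179.69 and 191.35 CPM in wild type and at 209.05, 186.68 and 185.26 CPM in knockout. Replicate 1 of both genotypes was again highest and all but equal, and the log2 fold change was 0.00 ± 0.08 (SE, edgeR adjusted p = 1.0). Pld6 (ENSMUSG00000043648, chromosome 11, 59783897 to 59787645, minus strand) encodes the mitochondrial nuclease of piRNA processing. It lay at 24.18, 24.54 and 21.97 CPM in wild type and at 22.77, 23.44 and 24.46 CPM in knockout. Its 6 libraries varied by 4.39%, as much as the 4.39% that counting alone gives, and the log2 fold change was 0.00 ± 0.08 (SE, edgeR adjusted p = 1.0).

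Piwil1 differed from the other 9 genes by the size of its high value in 1 library, and shared its highest library with most of them. The highest library was wild-type replicate 3 for Piwil4, knockout replicate 1 for Mael and wild-type replicate 2 for Pld6. Wild-type replicate 1 was the highest library for 7 of the 10 (Piwil1, Piwil2, Tdrd1, Tdrd5, Tdrd9, Mov10l1 and Ddx4), against 16.5% of tested genes. Replicate 1 of wild type and of knockout were the 2 highest libraries for 3 of the 10 (Mael, Mov10l1 and Tdrd9), against 14.6% of tested genes. Early meiotic markers had the same 2 libraries at the top, with summed levels of 2445 CPM in wild-type and 2434 CPM in knockout replicate 1 and 1338 to 1985 CPM in the other 4. Between these 2 libraries, Mael stood at 209.0 and 209.05 CPM and Mov10l1 at 247.49 and 227.94 CPM, whereas Piwil1 stood at 20.92 and 8.51 CPM, a log2 ratio of -1.30 within this pair. Piwil2, Tdrd1 and Tdrd5 were also highest in wild-type replicate 1 and not high in knockout replicate 1, with log2 ratios within this pair of -0.21, -0.20 and -0.32, and Tdrd9, high in both, had -0.25. In pairs 2 and 3 the log2 ratio of Piwil1 was -0.11 and -0.10. This comparison within pair 1 rests on 1 library of each genotype and has no replicate.

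**Figure D4:**
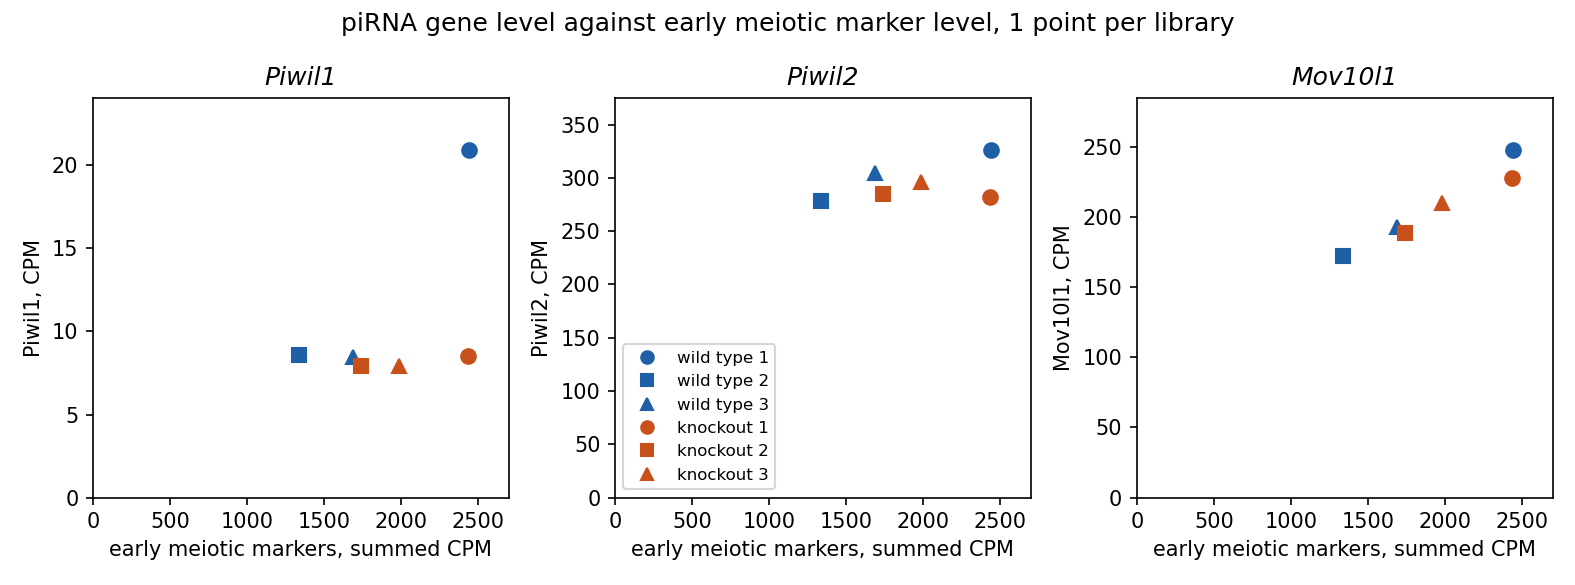
Level of Piwil1, Piwil2 and Mov10l1 (CPM, from 0) against the summed CPM of 13 early meiotic prophase markers, 1 point per library; blue is wild type, orange is knockout, and the shape gives the replicate number. Mov10l1 is highest in the 2 libraries with the highest marker sum (2445 and 2434 CPM), and Piwil1 is high in wild type 1 (20.92 CPM) and not in knockout 1 (8.51 CPM).

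Piwil1 was 1 of 25 genes (0.139% of those tested) at least 2-fold higher in wild-type replicate 1 than in every other library, and had the highest CPM of the 25. The others included the testis lactate dehydrogenase gene Ldhc (7.92 CPM there and at most 1.68 CPM elsewhere), the sperm surface gene Adam2 (5.61 and at most 1.46 CPM) and the meiotic gene Morc2b (6.43 and at most 1.27 CPM). Each of these 3 had its second highest level in knockout replicate 1. The 25 genes were not alike in this. Piwil1 and Smpd5 had their second highest level in wild-type replicate 2, and March10 had its lowest level in knockout replicate 1. Of the 12 listed markers of pachytene spermatocytes, 8 were highest in wild-type replicate 1, of which 3 (Ldhc, Adam2 and Spag6l, the last too low to be tested) by at least 2-fold. Ccna1 and Nme5 were highest in wild-type replicate 3, Pgk2 in knockout replicate 1 and Acrv1 in knockout replicate 2, all 4 at 1.47 CPM or less, and Tbpl1 (54.84 to 61.67 CPM) varied little. Of the 8 highest in wild-type replicate 1, Cdk5r2 (0.38 to 0.77 CPM), Spag6l (0.09 to 1.49 CPM) and Tcp11 (1.40 to 2.04 CPM) were low as well. Tcp11 was only 1.05 times its next library there. Summed over the 12 markers, the level was 291.9, 150.1 and 167.1 CPM in wild type and 231.2, 171.1 and 178.1 CPM in knockout. Most of this sum came from Hspa2, Tbpl1 and Ybx2. In replicate 1 of wild type and of knockout, Hspa2 lay at 158.38 and 128.54 CPM, Tbpl1 at 61.67 and 61.11 CPM, and Ybx2 at 51.93 and 33.74 CPM. The part of the stage of the germ cells in the Piwil1 level was not tested. The numbers of genes at least 2-fold above all other libraries were 7 for wild-type replicate 2, 46 for wild-type replicate 3, and 6, 7 and 1 for knockout replicates 1, 2 and 3.

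By Pearson correlation of log2 CPM over the 6 libraries, the 5 genes most like Piwil1 among 18039 were Ints6l (0.985), Nnt (0.984), Lekr1 (0.983), Catsperg1 (0.983) and Tdrd1 (0.982). Nnt, for the mitochondrial transhydrogenase, lay at 36.45 CPM in wild-type replicate 1 and between 19.17 and 20.97 CPM in the other libraries. Tdrd1, a member of the 10, was likewise highest in wild-type replicate 1, but its 6 libraries varied by 5.59% only. The genes most like Piwil2 were Ttc21b (0.997), AV320801, 4732419C18Rik, Brinp2 and Ptchd1 (0.965), and those most like Piwil4 were Lag3 (0.997), Arhgap27os2, Shh, Gm18432 and Hyal1 (0.976). All 5 genes like Piwil4 had their highest level in wild-type replicate 3, as Piwil4 did. As they were picked for following Piwil4, this shared peak is no separate observation. Shh (0.32 to 1.09 CPM) and Arhgap27os2 (0.41 to 1.04 CPM) were also near the floor. These are descriptions, picked from many genes over only 6 libraries of similar depth. Between the PIWI genes themselves, r was 0.82 for Piwil1 and Piwil2, -0.41 for Piwil1 and Piwil4, and -0.08 for Piwil2 and Piwil4 over the same 6 libraries. Every correlation with Piwil1 given here rests mainly on wild-type replicate 1 (20.92 CPM), as Piwil1 lay between 7.92 and 8.58 CPM in the other libraries.

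A wider list of the pathway held 30 further genes, of which 29 were matched and all 29 were tested. In edgeR 0 of 29 passed, with or without the block, as in DESeq2 and limma voom, and 1 (Nanos3) had an unadjusted p under 0.05 without the block, against 2.07% of tested genes. With the block 3 of 29 (Morc2b, Nanos3 and Tex15) had an unadjusted p under 0.05, against 7.48%. Their median log2 fold change was -0.024, against -0.005 over all tested genes. Knockout libraries lay wholly below wild type for 2 of 29 (Nanos3 and Spocd1), against 3.5% of tested genes, and wholly above for 0 of 29, against 3.09%.

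Among biogenesis factors of the wider list, Fkbp6, a chaperone cofactor of piRNA loading, had the highest level per kilobase (123.0 CPM per kilobase in wild type) and a log2 fold change of 0.05 ± 0.07 (SE). Gpat2, a mitochondrial acyltransferase-like protein that binds Piwil2, lay at 114.28, 80.35 and 83.32 CPM in wild type and at 109.28, 78.48 and 81.37 CPM in knockout. Its 2 high libraries were replicate 1 of each genotype, and its log2 fold change was -0.05 ± 0.18. Asz1, a scaffold on the mitochondrial surface, had 0.00 ± 0.07, the exonuclease gene Pnldc1, which trims piRNA ends, -0.01 ± 0.08, and the methyltransferase gene Henmt1, which protects those ends, -0.09 ± 0.10. Among germ granule genes, Rnf17 had 0.04 ± 0.11 and Tdrd7 0.05 ± 0.07. Tdrd6, a chromatoid body protein gene of later stages, was low at 0.57 to 1.54 CPM in wild type and 0.45 to 0.82 CPM in knockout, highest in wild-type replicate 1, with -0.59 ± 0.40 (edgeR unadjusted p = 0.173), and -0.12 ± 0.39 without that library. Replicate 1 of both genotypes were the 2 highest libraries for 13 of the 29 genes, against 14.6% of tested genes.

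The transcription factor gene Mybl1 (A-MYB) drives pachytene piRNA precursors and their processing genes. Like Piwil1 it was highest in wild-type replicate 1, but unlike Piwil1 it was also high in knockout replicate 1. The part of Mybl1 in the Piwil1 level was not tested. Mybl1 lay at 65.47, 35.45 and 45.68 CPM in wild type and at 60.33, 50.32 and 50.87 CPM in knockout. Its log2 fold change was 0.14 ± 0.22 (SE, edgeR adjusted p = 1.0) and 0.41 ± 0.12 without wild-type replicate 1 (edgeR adjusted p = 0.425). Tcfl5, a basic helix-loop-helix factor gene of spermatocytes, had -0.07 ± 0.09, and Btbd18, an elongation factor gene for piRNA loci, 0.05 ± 0.09. Nanos3, an RNA-binding regulator of spermatogonia, was listed here with the genes for silencing and transposon defence. It lay at 3.94, 4.66 and 4.97 CPM in wild type and 3.37, 3.11 and 3.69 CPM in knockout, with -0.41 ± 0.16 (edgeR unadjusted p = 0.0279, adjusted p = 1.0). Spocd1, which links Piwil4 to DNA methylation, lay at 5.43, 6.68 and 5.82 CPM in wild type and 5.01, 4.76 and 5.14 CPM in knockout, with -0.27 ± 0.14 (edgeR unadjusted p = 0.0849). Beside these values, 10 markers of undifferentiated spermatogonia summed to 341.2 to 416.1 CPM in wild type and 348.3 to 394.8 CPM in knockout, and their part in the levels of Nanos3 and Spocd1 was not tested. Morc2b had -1.58 ± 1.03 with wild-type replicate 1 and 0.27 ± 0.40 without it (edgeR adjusted p = 1.0 and 0.901). Tex15, a nuclear factor of piRNA-directed methylation, was the most abundant by CPM of the wider list, at 526.8, 409.96 and 531.17 CPM in wild type and 526.47, 455.77 and 598.85 CPM in knockout, with 0.11 ± 0.12.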

How the data were processed

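The values are raw counts, deposited by the authors as a single table of genes by 6 libraries. The submitters' processing notes name the build mm10 and the tools featureCounts 1.6.0, GSNAP and bcl2fastq 2.19.1. Per the labels' protocols the library kit kept strand. For the strand option of the counting, multiply matching reads and the annotation release, the sources used here give nothing. The table had 49763 rows, of which 92 spike-in rows were left out; 49412 of 49671 gene rows matched GENCODE M21. Antisense genes that share exon bases with Piwil4 (Gm10706) and Tdrd5 (4930518J20Rik) held 2 and 11 counts in all libraries together.

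Groups come from the genotype in the titles; the design text names 3 mice per genotype. The test was the two-sided robust quasi-likelihood test of edgeR 4.0.16 (R 4.3.3) after filterByExpr and TMM, with Benjamini-Hochberg adjustment over 18040 genes. The SE of an edgeR fit was the absolute log2 fold change divided by the square root of the F statistic of the test. Its median was 0.113. CPM per kilobase used the deposited exon length. Same-number libraries of the genotypes deviated together from their group means (r = 0.425, 0.258 and 0.284 across genes, all over the limit of 0.1). The numbers were therefore treated as pairs in the blocked fits and the within-pair ratios, a hint from the data that the labels do not state. The fit without the block was primary, and it leaves these shared deviations in its error. The biological coefficient of variation was 10.3% without the block and 5.67% with it. DESeq2 1.42.0, limma 3.58.1, other normalizations and filters, and fits without each library or pair were alternatives. On simulated counts for 18040 genes (knockout against wild type), edgeR without the block recovered 56.7%, 71.6% and 100% of genes changed 1.5, 2 and 4 fold, with 11 false calls. The simulated libraries were drawn independently, without the shared deviations of same-number libraries, and changed genes were taken above 1 CPM. These shares are therefore not the power on the real libraries, where the same fit called 0 genes. Ankrd31, at a log2 fold change of -0.84, was among those not called.

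The 10 genes and the lists were chosen with earlier results of these data known. Named genes are the 10, Ankrd31, genes of the wider list (always the 4 with the smallest unadjusted p: Nanos3, Spocd1, Tdrd6 and Morc2b) and the 5 genes most correlated with each PIWI gene. Ldhc and Adam2 are from the list of pachytene markers and were picked after their values were seen. Smpd5 and March10, from the 25 genes high in wild-type replicate 1, were also named after their values were seen. The choice of promoter windows, E-box and MYB words, and of the libraries described as high, was made after the data were seen.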

Additional observations from a re-analysis of the deposited data

How the results depend on the processing

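Of the 10 genes and the 29 of the wider list, 0 passed under each of the 17 alternatives. Low genes of the wider list, such as Tdrd6 and Morc2b, were not tested under the filter of at least 1 CPM in 3 libraries. Over all tested genes the count was 0 and became 2 with DESeq2, 1 without a filter on low counts, 8 with the replicate block, 63 with the block and without pair 1, and 57 with the block and without pair 2; it was 0 in each fit without 1 library. The block changed no call of the 10 genes or the wider list. Without 1 library, the median log2 fold change of the 10 genes ran from -0.131 to -0.005.

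The direction held under all 17 alternatives for Piwil1, Piwil2, Tdrd1 and Tdrd5. For Mov10l1 and Ddx4 it turned only in fits without 1 library. It turned for Piwil4 with the block and without pair 3 (0.059), for Tdrd9 with the block and without pair 1 (0.0022), and for Mael with library totals only (-0.014) and with the block and without pair 2 (-0.023). Pld6, at -0.0005, turned with DESeq2 (0.0033), RLE size factors (0.0034), at least 1 CPM in 3 libraries (0.0042), no filter (0.0055), the block (0.0001), and the block without pair 1 (0.046) or pair 2 (0.034). Without 1 library, log2 fold changes ran from -0.857 to -0.070 for Piwil1, -0.193 to 0.054 for Piwil4, -0.163 to 0.055 for Tdrd9, -0.076 to 0.195 for Mov10l1, -0.166 to 0.0087 for Ddx4, -0.056 to 0.062 for Mael, -0.041 to 0.030 for Pld6, -2.02 to 0.267 for Morc2b, -0.0047 to 0.211 for Tex15 and -0.046 to 0.410 for Mybl1. The cause was not tested.

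The ratio of Piwil1 to Piwil2 ran from -0.65 to -0.05 without 1 library, that of Piwil1 to Piwil4 from -0.76 to 0.12, and 0.13 with the replicate block and without pair 1; with the block alone they were -0.43 and -0.41. Without length correction 5 of 10 genes kept their place in the order of levels. Counting error was 6.61% for Piwil1 and 6.89% for Piwil4, above the other 8 of the 10 genes, and larger for the low genes of the wider list, such as Tdrd6 (23.6%) and Morc2b (16.1%).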
